A study of Mus musculus with 2 samples.

Results

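The endothelial cells of the mouse femur were examined in single-cell RNA sequencing libraries from untreated and calcitriol-injected mice. A droplet barcode was taken as endothelial when at least 200 genes were detected, when at least 3 of the 6 genes *Cdh5*, *Flt1*, *Ptprb*, *Cd93*, *Esam* and *Adgrl4* had a UMI (unique molecular identifier, which counts 1 captured mRNA molecule), and when *Col2a1* made up less than 0.5%, *Postn* less than 0.2%, *Acta2* less than 0.1% and the 4 adult haemoglobin genes together less than 10% of its UMIs. These limits selected 436 of the 8553 barcodes with at least 200 genes, out of 10638 barcodes in all. The cells were thus chosen by measured values, and high levels of the 6 genes are a description of the choice.

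Both libraries came from 7-week-old male C57BL/6J mice. Femurs of 6 mice per group were pooled into 1 library, and the groups were untreated mice and mice given 3 daily intravenous injections of 2.5 μg/kg calcitriol (1,25-dihydroxyvitamin D3, the active hormone form of vitamin D), with the femurs taken 24 h after the last. The bones of both groups were freed of epiphyses and marrow before digestion with collagenase and EGTA, and CD45-positive cells were depleted on magnetic beads. Because each group is 1 library, no test between groups was possible. Every ratio below has a 95% interval that covers counting error only, and the effect of the injections cannot be told apart from that of the pool, the digestion or the library.

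Endothelial cells line all blood and lymph vessels. They control the passage of fluid, lipid and leukocytes, form caveolae (flask-shaped membrane pits built by caveolins and cavins), and renew themselves by sprouting under VEGF, whose receptors are *Kdr* and *Flt1*. Arterial, capillary, venous, sinusoidal and lymphatic endothelium differ in the genes they express, and in bone the capillaries supply signals to osteoblasts and blood-forming cells. Calcitriol acts through the nuclear receptor encoded by *Vdr*.

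The untreated library gave 200 endothelial cells and the calcitriol library 236. These were 4.32% [3.75, 4.94] of 4633 and 6.02% [5.30, 6.81] of 3920 barcodes with at least 200 genes (exact Clopper-Pearson interval). Among barcodes with less than 10% haemoglobin the order turned, with 8.93% [7.78, 10.2] of 2239 untreated and 6.82% [6.01, 7.72] of 3458 calcitriol barcodes, since haemoglobin genes took 41.2% of all UMIs of the untreated and 10.6% of the calcitriol library. No direction was therefore read from the share of endothelial cells. The libraries shared 8 barcodes, and none of these was endothelial. The whole libraries held 70266983 and 60392557 UMIs, and the endothelial cells 2415470 and 2946633. A median endothelial cell had 8042 UMIs and 2719 genes in the untreated library, and 8891 UMIs and 2640 genes in the calcitriol library.

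All 6 genes of the rule were detected in 129 untreated and 149 calcitriol cells, whereas 30 and 27 cells entered with just 3 of them. Another 53 untreated and 50 calcitriol barcodes had 2 of the 6 genes and stayed outside. *Pecam1*, a junction protein of all endothelium that the rule did not use, reached 732 and 445 CPM (UMIs of the gene per 1000000 UMIs of the summed cells of a library) in barcodes with 3 of the genes, against 488 and 147 CPM in those with 2. The pericyte gene *Rgs5* stood at 712 and 1602 CPM with 3 genes and at 3062 and 3129 CPM with 2. The other limits removed 29 untreated and 14 calcitriol barcodes with 3 or more of the genes, 14 and 4 of them by haemoglobin and 10 and 7 by *Acta2*.

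Endothelial genes outside the rule were measured in the same cells. *Fabp4*, a fatty acid carrier of capillary endothelium, was at 7878 CPM in untreated and 7007 CPM in calcitriol cells, and 83.5% and 84.3% of the cells had a UMI of it. *Gpihbp1*, which anchors lipoprotein lipase on the capillary wall, was at 719 and 1018 CPM. The junction genes *Pecam1* (1206 and 1307 CPM) and *Cldn5* (894 and 1388 CPM) stood beside the rule gene *Cdh5*, which encodes VE-cadherin (1257 and 1182 CPM). In the 1922 untreated and 378 calcitriol barcodes with at least 50% haemoglobin, erythroid droplets that should lack these transcripts, *Pecam1* had a UMI in 0.312% and 0.265%, *Gpihbp1* in 0.208% and 1.06% and *Fabp4* in 2.55% and 3.17%. These droplets had medians of 10480 and 10324 UMIs, with medians of 2002 and 1553 left without haemoglobin, against 8042 and 8891 UMIs of the endothelial cells. Shares of haemoglobin-rich barcodes, here and further on, were therefore measured at a lower depth in other genes than shares of endothelial cells. The plot of marker levels sets these values side by side.

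**Figure D1:**
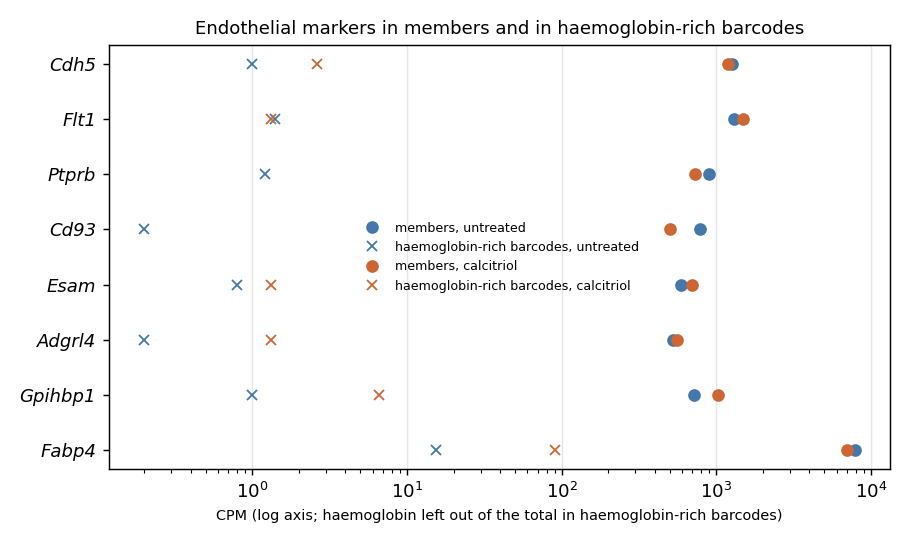
Levels of 8 endothelial marker genes (CPM, log axis) in the 200 untreated and 236 calcitriol endothelial cells (dots) and in haemoglobin-rich barcodes of the same libraries (crosses, with haemoglobin left out of the total). *Ptprb* and *Cd93* had no UMI in the calcitriol haemoglobin-rich barcodes and have no cross there. The upper 6 genes chose the cells, so their distance from the crosses was fixed by the choice, and *Gpihbp1* and *Fabp4* are the 2 genes outside it, both with dots to the right of their crosses.

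The endothelial markers include 2 genes of the rule with an entry among the promoters of RefSeq, *Flt1* and *Adgrl4*. Their 250 bases before the start of transcription are shown because ETS transcription factors, such as those encoded by *Erg* and *Fli1*, are known to act on endothelial genes. The sequences read 5′ to 3′ on the strand of the gene (GRCm38.p6), and capitals mark the ETS core AGGAAG or its reverse complement CTTCCT.
Flt1 (chr5:147726012-147726261, minus strand): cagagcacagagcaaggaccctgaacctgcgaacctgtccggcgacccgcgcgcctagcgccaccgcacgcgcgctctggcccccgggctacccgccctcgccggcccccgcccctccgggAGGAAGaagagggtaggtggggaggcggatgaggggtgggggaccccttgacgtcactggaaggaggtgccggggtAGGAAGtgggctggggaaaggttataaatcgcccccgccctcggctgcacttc
Adgrl4 (chr3:151437632-151437881, plus strand): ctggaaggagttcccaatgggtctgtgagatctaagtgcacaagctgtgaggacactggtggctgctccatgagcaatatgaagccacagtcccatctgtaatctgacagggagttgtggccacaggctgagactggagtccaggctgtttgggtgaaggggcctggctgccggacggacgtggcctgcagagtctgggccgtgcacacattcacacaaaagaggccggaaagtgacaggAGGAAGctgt
The core lay in the same window of 8 of the 13 pan-endothelial genes with an entry, out of 26 on the list, and in 29.2% of 27025 promoters. It is a short match and not a measured binding site. *Erg* was at 181 and 182 CPM and *Fli1* at 172 and 212 CPM.

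Markers of other cells were looked for in the same cells. Of the 12 listed genes of the CD45 lineage, *Ptprc*, *Cd3e* and *Csf1r* had no UMI in the endothelial cells of either library. This allows levels of up to 1.24 and 1.02 CPM (3 counts). CD45-positive cells were depleted on beads, and the rule chose droplets by endothelial genes. The part of either in these counts was not tested. The 12 genes of that list together reached 42.6 CPM (untreated) and 25.5 CPM (calcitriol), of which *Fcer1g* made up 35.6 and 20.7 CPM. Erythroid genes summed to 4239 and 641 CPM, led by *Hbb-bs*, and a UMI of at least 3 of the 8 was seen in 186 untreated and 81 calcitriol cells. Skeletal muscle genes summed to 296 and 90.6 CPM, led by *Acta1*, with *Myod1* at 0. Osteoblast genes summed to 188 and 3006 CPM, of which *Spp1* made up 42.2 and 2799 CPM, and chondrocyte genes to 181 and 2248 CPM, of which *Prg4* made up 48.9 and 2048 CPM. The 5 osteocyte genes summed to 15.7 and 217 CPM, led by *Dmp1*. Fibroblast genes summed to 1734 and 2446 CPM and smooth muscle and pericyte genes to 1254 and 1290 CPM, with *Cnn1* at 0. At least 3 fibroblast markers were seen in 51 and 71 cells, and at least 3 smooth muscle and pericyte markers in 29 and 27. Whether these transcripts came from free RNA, from a second cell in the droplet or from the endothelial cell itself was not tested.

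A gene was measured when both libraries together gave at least 50 UMIs and when at least 10% of the endothelial cells of either library had one. Of 7993 such genes, 131 (1.64%) were at least 2-fold higher in the calcitriol cells and 154 (1.93%) at least 2-fold lower. The median log2 ratio of calcitriol over untreated was -0.06, with quartiles of -0.32 and 0.19, and 57.0% of the genes were below 0. None of the 26 pan-endothelial genes was past 2-fold in either direction, and their median was -0.10. The list holds the 6 genes whose UMIs chose the cells in both libraries, so that its nearness to 0 is in part fixed by the choice. The 4 lowest of these were *Sox18* at -0.86 [-1.05, -0.67], *Icam2* at -0.84 [-1.04, -0.64], *Kdr* at -0.83 [-0.96, -0.70] and the rule gene *Cd93* at -0.65 [-0.75, -0.55], and the highest was *Cldn5* at 0.63 [0.56, 0.71]. *Pecam1*, which the rule did not use, was at 0.12 [0.05, 0.19], and the rule gene *Cdh5* at -0.09 [-0.16, -0.02].

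**Figure D2:**
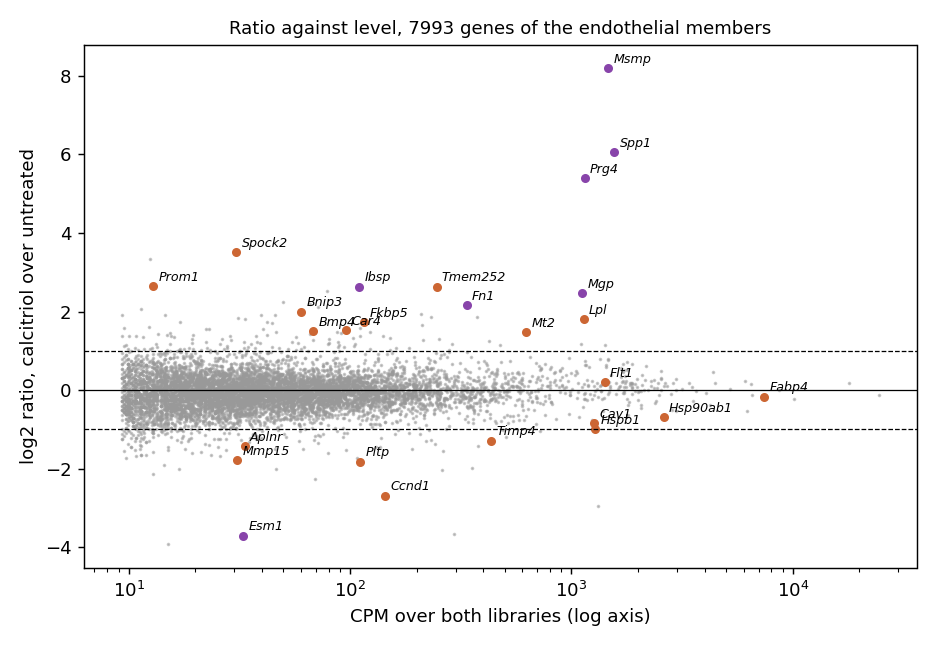
Log2 ratio of calcitriol over untreated against the level over both libraries (CPM, log axis) for 7993 genes of the endothelial cells. Purple marks genes of which a single cell held a large share of the UMIs in a library, orange marks other genes named in the text, and dashed lines mark 2-fold. *Msmp*, *Spp1* and *Prg4* stand far above the other genes, and *Esm1* and *Ccnd1* are low.

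The highest ratios rested on few cells. *Msmp* went from 9.11 to 2659 CPM (log2 ratio 8.19 [7.59, 8.86]), but 7799 of its 7834 UMIs in the calcitriol library were in 1 cell, where they made up 20.7% of all UMIs. Without the top cell of each library the ratio was 0.67. *Prg4*, which encodes the joint lubricant lubricin, went from 48.9 to 2048 CPM (5.39 [5.13, 5.67]), and 1 cell held 92.5% of its calcitriol UMIs. Without the top cells this ratio was 1.94. *Spp1*, which encodes the bone matrix protein osteopontin, went from 42.2 to 2799 CPM (6.05 [5.77, 6.35]), and 1 cell held 48.3% of its calcitriol UMIs. Here the ratio stayed at 5.91 without the top cells but was 1.81 without cells with 3 or more markers of other cell types. *Spp1* was also present in the haemoglobin-rich barcodes, at 77.6 CPM of the UMIs without haemoglobin in the untreated library and at 1500 CPM in the calcitriol library. *Prg4* was at 37.6 and 690 CPM there, and *Msmp* at 57.0 and 367 CPM. A UMI of *Spp1* was seen in 18.5% and 46.2% of the endothelial cells, and in 14.7% and 45.2% of the haemoglobin-rich barcodes. For *Prg4* the shares were 20.5% and 44.5%, and 8.01% and 34.4%. *Spp1* was past 2-fold in all 14 alternatives computed per gene. The calcitriol levels of *Msmp* and *Prg4* are therefore given as values mostly of 1 droplet each, and the source of the *Spp1* UMIs was not tested.

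Single cells also held 72.2% of the calcitriol UMIs of *Ibsp* (2.63 [2.27, 3.02]), 53.8% of those of *Mgp* (2.46 [2.36, 2.58]) and 62.0% of those of the fibronectin gene *Fn1* (2.16 [1.98, 2.35]), all 3 being matrix genes of mesenchymal cells. Without the top cell of each library the ratios were 3.31 for *Ibsp*, of which 1 untreated cell held 82.6%, 1.88 for *Mgp* and 1.01 for *Fn1*. The ratio of *Fn1* was -0.30 and that of *Ibsp* 0.93 without the cells of sub-clusters 4 and 6 described further on. The same droplet was the top cell of both *Prg4* and *Fn1*, and another was the top cell of both *Spp1* and *Mgp*. The haemoglobin-rich barcodes likewise held *Mgp* at 218 and 1033 CPM of the UMIs without haemoglobin, beside 321 and 1774 CPM of all UMIs in the endothelial cells. A further calcitriol cell had UMIs of all 6 endothelial genes together with 158 UMIs of *Fgf23* and 395 of *Dmp1*, genes of osteocytes, chosen here after their values were seen. It held all UMIs of *Fgf23* among the endothelial cells of both libraries.

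Other genes were higher in a large share of the calcitriol cells. *Tmem252*, a gene of an integral membrane protein on chromosome 19 (chr19:24674008-24682233, GRCm38, plus strand), was at 63.8 CPM in untreated and 395 CPM in calcitriol cells. It was seen in 49 of 200 (24.5%) and in 158 of 236 cells (66.9%). The ratio was 2.63 [2.39, 2.88] on the log2 scale, and the top cell held 5.59% of its calcitriol UMIs. In the haemoglobin-rich barcodes a UMI of *Tmem252* was seen in 0.104% and 0.265%. When every cell was thinned to 2000 UMIs, which left out 22 untreated and 23 calcitriol cells, the shares were 8.99% and 47.9%.

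*Spock2*, which encodes a matrix proteoglycan, was at 4.55 and 51.9 CPM, in 4.5% and 28.8% of the cells (3.51 [2.63, 4.54]). *Prom1* (CD133) was at 3.31 and 20.7 CPM, in 3.5% and 14.4% of the cells (2.64 [1.58, 3.92]), and *Nrtn*, the growth factor neurturin, at 2.07 and 21.0 CPM (3.35 [2.05, 5.02]). The counts behind them were small, with 11, 8 and 5 UMIs in the untreated cells. *Serpina3n*, an acute-phase protease inhibitor, was at 21.9 and 125 CPM in 8 and 26 cells (2.51 [2.09, 2.96]). The lymphatic-like cells, sub-cluster 5 described further on, held all 53 of its untreated and 314 of its 369 calcitriol UMIs. In all barcodes outside the endothelium the ratio of *Serpina3n* was 3.64 [3.54, 3.75]. *Spock2*, *Prom1*, *Nrtn* and *Serpina3n*, like *Msmp* and *Ibsp*, reached the limit of 10% of cells in the calcitriol library alone. Their place among the highest ratios was therefore in part fixed by that limit.

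Genes of the capillary and lipid uptake list went both ways, 8 above 0 and 9 below it, beside 57.0% of all genes below. *Lpl*, the lipase that *Gpihbp1* anchors, was at 479 and 1674 CPM, and 49.0% and 62.7% of the cells held at least 1 UMI (1.81 [1.71, 1.90]). The fatty acid transporter *Cd36*, which 64.2% and 69.0% of the haemoglobin-rich barcodes also held, was at 1321 and 2163 CPM (0.71 [0.65, 0.77]). *Gpihbp1* had a ratio of 0.50 [0.42, 0.59] and the carbonic anhydrase *Car4*, a mark of capillaries, was at 47.2 and 136 CPM (1.52 [1.22, 1.84]). In contrast, *Timp4*, an inhibitor of metalloproteinases, was at 638 and 262 CPM (-1.28 [-1.41, -1.16]), the glycerol channel *Aqp7* at 74.1 and 32.2 CPM (-1.20 [-1.58, -0.83]) and *Fabp5* at 374 and 189 CPM (-0.99 [-1.14, -0.83]). Of the 17 capillary and lipid uptake genes that passed the limits, 2 were past 2-fold higher and 2 lower, beside 1.64% and 1.93% of all genes, and the median was -0.09.

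Among the lower genes, *Ccnd1*, the cyclin D1 gene, was measured in many cells (chr7:144929931-144939925, GRCm38, minus strand). It was at 268 CPM in untreated and 41.4 CPM in calcitriol cells, and was seen in 110 of 200 (55.0%) and 44 of 236 (18.6%). The ratio was -2.69 [-2.98, -2.41], and -2.79 without the top cell of each library. Over the cells the quartiles of *Ccnd1* were 0, 71.8 and 319 CPM in the untreated library, and the third quartile of the calcitriol library was 0. *Mmp15*, a membrane-bound metalloproteinase, was at 50.5 and 14.6 CPM (-1.79 [-2.33, -1.28]), and *Pltp*, a phospholipid transfer protein, at 183 and 51.9 CPM (-1.82 [-2.10, -1.55]). Both were detected in fewer of the calcitriol cells, 12.3% against 34.5% for *Mmp15* and 32.2% against 50.5% for *Pltp*.

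The other genes among the 10 lowest were *Car2* (-3.93 [-5.42, -2.74]), *Esm1* (-3.71 [-4.58, -2.95]), *Cryab* (-2.25 [-2.64, -1.89]), *Chek2* (-2.13 [-3.07, -1.29]), *Gm32688* (-2.00 [-2.78, -1.28]), *Mylpf* (-2.00 [-2.45, -1.57]) and *Rcl1* (-1.90 [-2.73, -1.13]). All of these but *Mylpf* reached the limit of 10% of cells in the untreated library alone, so their place among the lowest was in part fixed by that limit. *Car2* had a UMI in 99.1% of the untreated haemoglobin-rich barcodes and *Mylpf* is a gene of fast muscle fibres, and both lists of transcripts, erythroid and muscle, were lower in the calcitriol cells as given above. *Mylpf* was seen in 13.0% and 5.56% of the haemoglobin-rich barcodes, against 17.5% and 12.7% of the endothelial cells. *Chek2* was seen in 17.0% and 7.41% of them, against 19.0% and 5.93% of the endothelial cells. These barcodes held it at 82.6 and 45.9 CPM of the UMIs without haemoglobin, above the 22.4 and 5.09 CPM of the endothelial cells, so that they are no measure of free RNA for this gene. *Esm1*, a marker of sprouting tip cells, was at 66.7 CPM in 20 untreated and 5.09 CPM in 10 calcitriol cells. 1 untreated cell held 49.7% of its UMIs, and the ratio without the top cells was -3.17.

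**Figure D3:**
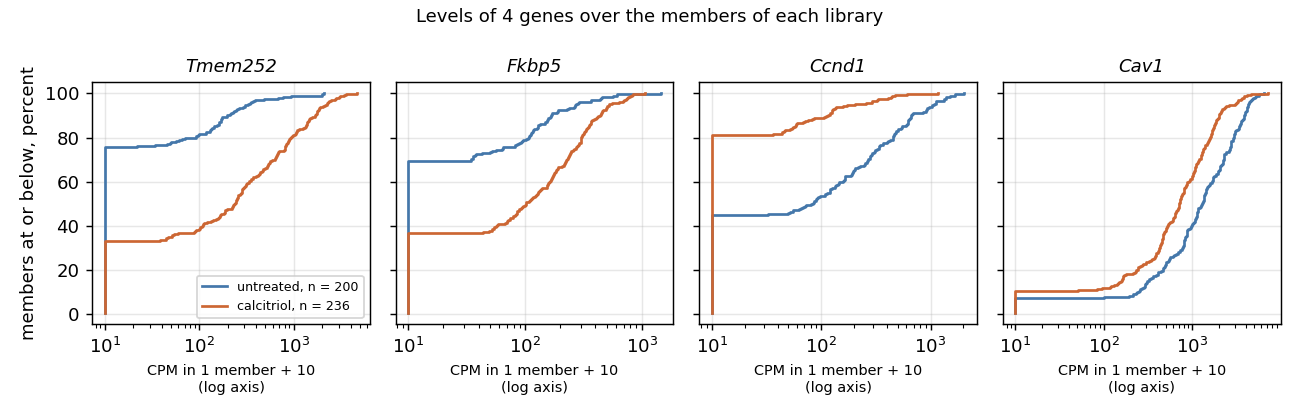
Cumulative share of endothelial cells (percent) at or below a level of *Tmem252*, *Fkbp5*, *Ccnd1* and *Cav1* (CPM in 1 cell plus 10, log axis) in the untreated (n = 200 cells) and calcitriol (n = 236 cells) library. The cells are not replicates of a condition. The step at the left edge is the share with no UMI, 33.1% of the calcitriol cells for *Tmem252*, and the *Cav1* curve of the calcitriol library lies left of the untreated one over most of its range.

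Genes known to be induced by glucocorticoids were the list with the highest median. Of the 21 of 22 that passed the limits, 8 were past 2-fold higher, beside 1.64% of all genes, and none was lower. The intervals of 19 lay above 0, as did those of 12.4% of all genes, and the median was 0.84 beside -0.06 over all genes. *Fkbp5*, a co-chaperone of the glucocorticoid receptor (chr17:28399094-28517527, GRCm38, minus strand), was at 50.9 CPM in untreated and 168 CPM in calcitriol cells. It was seen in 30.5% and 63.1% of them, and the ratio was 1.72 [1.43, 2.02]. The haemoglobin-rich barcodes held it in 0.26% and 2.12%. The transcription factor *Zbtb16* was at 56.7 and 142 CPM (1.32 [1.04, 1.61]), and *Tsc22d3*, which encodes GILZ, at 221 and 434 CPM (0.97 [0.82, 1.12]).

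The metallothionein genes *Mt1* (852 and 1881 CPM, 1.14 [1.07, 1.22]) and *Mt2* (315 and 875 CPM, 1.47 [1.36, 1.59]), which bind zinc, and the stress regulators *Ddit4* (1.07 [0.87, 1.27]) and *Sesn1* (1.23 [0.74, 1.75]) were past 2-fold as well. *Mt1* was also seen in 7.60% and 29.9% of the haemoglobin-rich barcodes, against 44.0% and 65.3% of the endothelial cells. These barcodes held *Mt1* at 84.2 and 926 CPM and *Mt2* at 45.6 and 425 CPM of the UMIs without haemoglobin. *Lcn2*, lipocalin 2, was at 95.2 and 344 CPM (1.86 [1.65, 2.07]). The 47 lymphatic-like cells held 215 of its 230 untreated and 825 of its 1015 calcitriol UMIs (1.75 [1.53, 1.98] among them), and sub-cluster 2 held 12 and 157 UMIs (3.40 [2.55, 4.38]). In all barcodes outside the endothelium the ratio of *Lcn2* was 2.77 [2.65, 2.89]. The kinase gene *Map3k6* was at 46.8 and 107 CPM (1.20 [0.88, 1.52]). Of these 8 calls, those of *Fkbp5*, *Zbtb16*, *Mt2* and *Lcn2* held in all 14 alternatives computed per gene. The lowest values of the others were 0.49 for *Ddit4* (thinned), 0.82 for *Sesn1* (without cells with 3 or more markers of other cell types), and 0.87 for *Mt1* and 0.96 for *Map3k6* (mean of the cells' CPM). On the other side, *Mertk* was at -0.50 [-1.07, 0.07] and *Nfkbia* at -0.07 [-0.12, -0.01]. The receptor gene itself, *Nr3c1*, chosen after its values were seen, was at 230 and 182 CPM (-0.34 [-0.51, -0.16]). In the upstream windows of 19 of these genes, the half-site AGAACA (or TGTTCT) of the glucocorticoid receptor was found in 3, and in 16.1% of all promoters.

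The list was also higher outside the endothelium. In 527 untreated and 910 calcitriol barcodes with UMIs of *Ly6a*, *Pdgfra* and *Dcn*, taken as fibroblasts, its median was 0.75 beside -0.14 over all genes, and 8 of 22 genes were past 2-fold higher beside 1.84% of all genes there. In all barcodes outside the endothelium the median was 1.40, beside 0.39 over all genes. The make-up of these barcodes differed, since haemoglobin genes took 41.2% of all UMIs of the untreated and 10.6% of the calcitriol library. *Fkbp5* had ratios of 0.67 in the fibroblast barcodes and 1.87 in all barcodes outside the endothelium, against 1.72 in the endothelial cells. In smooth muscle and pericyte barcodes its ratio was 2.06 [1.25, 2.99]. *Tmem252* had 0 and 6 UMIs in the fibroblast barcodes, 7 and 1 in 58 and 83 smooth muscle and pericyte barcodes, and 40 and 86 in all barcodes outside the endothelium (1.16 [0.60, 1.73]). *Ccnd1* was at 116 and 56.9 CPM in the fibroblast barcodes (-1.02) and at -0.09 in all outside the endothelium, against -2.69 in the endothelial cells. Dissociation-stress genes, which rise while tissue is digested, had a median of 0.18 in the endothelial cells, with none of 21 past 2-fold. Of these 21, 14 were above 0, and 12 had intervals above 0, beside 12.4% of all genes. *Fos* was at 3683 and 3611 CPM (-0.03), while the ratio of *Jun* was 0.29 and that of *Egr1* 0.49. By sub-cluster, the median of this list was 0.11, 0.14 and 0.03 in sub-clusters 1 to 3. It was 0.66 in sub-cluster 4, where 8 of 20 were past 2-fold higher beside 3.75% of all genes. It was 0.16 in the fibroblast barcodes and 0.19 in the smooth muscle and pericyte barcodes. In all barcodes outside the endothelium it was 1.10, with 12 of 21 past 2-fold higher beside 7.80% of all genes. The part of dissociation-stress genes in the other results was not tested in any of these cells.

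Genes of caveolae were lower together. Of 11 that passed, 10 were below 0, beside 57.0% of all genes, 9 of these with intervals that left out 0, and the median was -0.67. Over all genes, 19.3% had intervals below 0. *Cav1*, caveolin 1 (chr6:17306335-17341452, GRCm38, plus strand), was at 1675 CPM in untreated and 932 CPM in calcitriol cells (-0.85 [-0.92, -0.78]). It was seen in 92.5% and 89.4% of them, and its median over cells was 1267 and 699 CPM. *Cavin2* was at 1601 and 946 CPM (-0.76 [-0.83, -0.69]), *Cavin1* at 1097 and 654 CPM (-0.75 [-0.83, -0.66]), *Cav2* at -0.74 [-0.87, -0.61] and *Cavin3* at -0.67 [-0.78, -0.56].

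*Plvap*, which spans the diaphragms of fenestrae and caveolae, was at -0.53 [-0.65, -0.40], and *Pacsin2* at 0.06 [-0.18, 0.31]. In the fibroblast barcodes the median of the list was -0.58 beside -0.14 over all genes, and in all barcodes outside the endothelium it was 0.25 beside 0.39. In the smooth muscle and pericyte barcodes it was -0.71 beside -0.03, with 3 of 10 past 2-fold lower beside 3.47% of all genes there. The median of the pan-endothelial genes that passed in those barcodes was -2.39.

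VEGF, angiopoietin and apelin signalling genes had a median of -0.58. Of 14, 12 were below 0, beside 57.0% of all genes. The list holds the rule genes *Flt1* and *Ptprb* (-0.30 [-0.39, -0.21]), whose UMIs chose the cells, so their ratios were in part fixed by the choice. Past 2-fold, 2 were lower and 1 was higher, beside 1.93% and 1.64% of all genes. *Kdr*, the main signalling receptor for VEGF-A, was at 475 and 267 CPM, its co-receptor *Nrp1* at 523 and 306 CPM (-0.77 [-0.90, -0.65]) and the angiopoietin receptor *Tek* at 152 and 108 CPM (-0.50 [-0.72, -0.28]). The apelin receptor *Aplnr* was at 50.9 and 19.0 CPM (-1.42 [-1.90, -0.95]) and the semaphorin receptor *Plxnd1* at 228 and 112 CPM (-1.03 [-1.23, -0.83], and -0.88 without cells with markers of other cell types). *Flt1*, a gene of the rule that binds VEGF without strong signalling, was at 1303 and 1498 CPM (0.20 [0.14, 0.27]). *Vegfa* itself was at 22.8 and 52.6 CPM (1.21 [0.76, 1.68]), with 32.3% of its calcitriol UMIs in 1 cell and a ratio of 0.78 without the top cells.

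Tip cell genes had a median of -0.39. In sub-cluster 4, which held most of the tip cell markers, 9 of 14 were past 2-fold lower beside 4.48% of all genes there, and the median was -1.18. The untreated part of this sub-cluster held 1 cell of 73338 UMIs with 80 of the 161 untreated UMIs of *Esm1*. Its calcitriol part held the top cells of *Prg4*, *Spp1* and *Dmp1*. Values of sub-cluster 4 without these cells are not given, and their part in its ratios was not tested. Without sub-clusters 4 and 6 the median of the list was 0.22. Among the other signals to the surroundings, *Bmp4* was at 33.9 and 96.4 CPM (1.51 [1.15, 1.88]), *Cxcl12*, the chemokine that holds blood-forming cells in the bone, at 626 and 361 CPM (-0.79 [-0.91, -0.68]), and *Kitl* at 502 and 487 CPM (-0.04 [-0.15, 0.07]). Of 16 angiocrine genes, 1 was past 2-fold higher (1.64% of all genes) and none lower. Notch signalling genes had a median of 0.08, with none of 11 past 2-fold.

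Leukocyte adhesion genes were below 0 in 11 of 12 cases, beside 57.0% of all genes, and 10 had intervals below 0, beside 19.3%. Their median was -0.52 beside -0.06 over all genes, and none was past 2-fold. *Selp*, P-selectin of venous endothelium, was at 587 and 342 CPM (-0.78 [-0.90, -0.66]), *Podxl* at 377 and 200 CPM (-0.91 [-1.06, -0.76]) and *Icam1* at 405 and 298 CPM (-0.44 [-0.58, -0.31]). The neutrophil chemokines *Cxcl1* (577 and 214 CPM, -1.43 [-1.57, -1.29]) and *Cxcl2* (173 and 52.6 CPM, -1.72 [-2.00, -1.45]) were past 2-fold lower, as was *Cxcl10* (297 and 105 CPM, -1.50 [-1.70, -1.31]). Part of these values rested on the cells kept. Without cells with 3 or more markers of other cell types *Cxcl1* was at -0.28, *Cxcl10* at -0.75, *Cxcl2* at -1.20, *Selp* at 0.04 and *Icam1* at 0.07, while the median of the adhesion list was -0.41. For the mean of the cells' CPM *Cxcl2* was at -0.22. Interferon-response genes had a median of 0.32, with none of 17 past 2-fold. MHC class II genes had too few UMIs to be measured, and none of 7 passed.

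**Figure D4:**
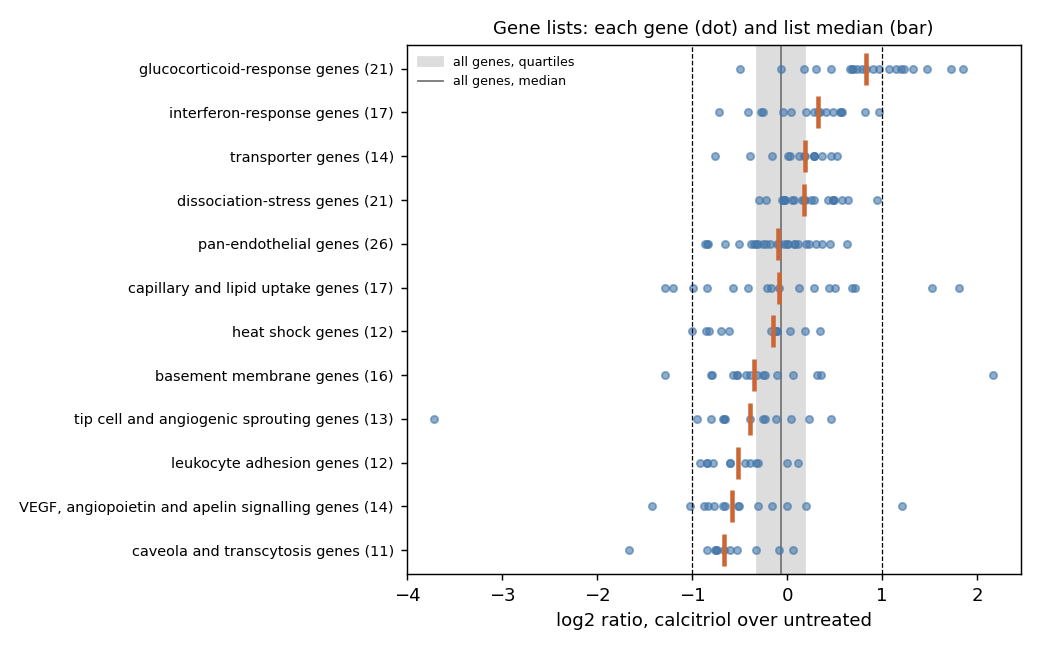
Log2 ratio of calcitriol over untreated for the genes of 12 lists (dots, number of genes in brackets) with the median of each list (orange bar), beside the median and quartiles of all 7993 genes (grey). Dashed lines mark 2-fold. The median of the glucocorticoid-response list (0.84) lies above the quartiles of all genes and those of the caveola (-0.67), VEGF (-0.58) and leukocyte adhesion (-0.52) lists lie below them.

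Basement membrane genes had a median of -0.35, with 12 of 16 below 0 beside 57.0% of all genes, and 1 was past 2-fold in each direction (1.64% of all genes higher and 1.93% lower). *Col15a1* was at 325 and 133 CPM (-1.29 [-1.47, -1.11], but -0.52 without cells with 3 or more markers of other cell types), *Col4a1* at 2357 and 1802 CPM (-0.39 [-0.44, -0.33]) and *Sparc* at 3552 and 2460 CPM (-0.53 [-0.58, -0.48]). *Fn1* was the 1 member past 2-fold higher and is described above.

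Of the vascular tone genes, *Ace*, the angiotensin-converting enzyme, was at 43.9 and 123 CPM, in 29.0% and 55.9% of the cells (1.49 [1.17, 1.82]). *Nos3*, the endothelial nitric oxide synthase, was at 90.7 and 106 CPM (0.22 [-0.03, 0.48]), and *Ace* was the 1 gene of 13 past 2-fold higher (1.64% of all genes). *Procr*, the protein C receptor of the anticoagulant pathway, was at 210 and 76.4 CPM (-1.46 [-1.69, -1.23]), but at -0.21 without sub-clusters 4 and 6.

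Chaperone genes were mostly lower. Of 12 heat shock genes, 9 were below 0, beside 57.0% of all genes, and all 9 had intervals below 0, beside 19.3%. Above 0 were 3, of which 2 had intervals above 0, beside 12.4% of all genes. *Hspb1* was at 1770 and 883 CPM (-1.0 [-1.07, -0.93]) and *Hsp90ab1* at 3305 and 2042 CPM (-0.69 [-0.74, -0.65]), whereas *Hspa1a* was at 640 and 816 CPM (0.35 [0.26, 0.44]). Of 12 heat shock genes, 1 was past 2-fold lower (1.93% of all genes) and the median was -0.14, and this call, *Hspb1*, was at -0.80 without cells with markers of other cell types. The list differed between sub-clusters. In sub-cluster 3, 8 of 12 were past 2-fold lower (4.68% of all genes there) with a median of -1.33, and in sub-cluster 1, 3 were lower (3.18% of all genes) with a median of -0.60. The median was -0.19 in sub-cluster 2, and 0.24 in sub-cluster 4, where 2 were past 2-fold higher (3.75% of all genes) and none lower. The upstream 250 bases of *Hspb1* are shown as an example of the unit to which heat shock factor is known to bind. Capitals mark GAANNTTC, which reads the same on both strands.
Hspb1 (chr5:135887669-135887918, plus strand): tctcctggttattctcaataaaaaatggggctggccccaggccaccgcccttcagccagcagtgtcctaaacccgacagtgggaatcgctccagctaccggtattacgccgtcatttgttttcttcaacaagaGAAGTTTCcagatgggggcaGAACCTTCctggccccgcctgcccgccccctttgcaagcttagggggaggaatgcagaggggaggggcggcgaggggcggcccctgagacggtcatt
This pair of units was found in 5 of the 9 heat shock genes with an entry and in 6.79% of all promoters.

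Vitamin D genes were little measured in these cells. *Vdr* had 12 UMIs in the untreated and 9 in the calcitriol cells, in 1.5% and 3.39% of them, and 9 of the 12 untreated UMIs were in 1 cell of sub-cluster 6. *Cyp24a1*, the enzyme that breaks down calcitriol and a usual target of its receptor, had 0 and 5 UMIs, all 5 in 1 cell of sub-cluster 4 that held 11 fibroblast markers. A count of 0 in 200 cells allows a share of cells with a UMI of up to 1.5%. Only 4 of the 15 vitamin D genes passed the limits, and of these *Rxra* was at 0.03, *Rxrb* at 0.29 and *Pdia3* at -0.43, while *Spp1* is described above. The half-site AGTTCA (or TGAACT) of the vitamin D receptor was searched as well, and lay upstream of 2 of the 19 glucocorticoid-response genes with an entry and in 11.9% of all promoters.

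Few cells were dividing. The 9 markers of division summed to 243 CPM in untreated and 48.5 CPM in calcitriol cells, and at least 3 of them were seen in 6 and 2 cells. *Mki67* was at 60.9 and 7.47 CPM, in 7.5% and 4.66% of the cells. Of the cell cycle genes, 7 of 18 passed, and 1, *Mcm6* of the replication helicase, was past 2-fold lower (-1.41 [-2.00, -0.85], beside 1.93% of all genes). Hypoxia and glycolysis genes were past 2-fold higher in 3 of 12 cases (1.64% of all genes), *Bnip3* (22.8 and 90.6 CPM, 1.99 [1.57, 2.44]), *Pfkfb3* (97.3 and 196 CPM, 1.01 [0.79, 1.24]) and *Vegfa*, with a median of -0.16. *Bnip3* stayed past 2-fold in all 14 alternatives, *Pfkfb3* in 7 (lowest 0.92) and *Vegfa* in 7 (lowest 0.23, thinned). In all barcodes outside the endothelium the ratios of *Bnip3*, *Pfkfb3* and *Vegfa* were 2.01, 0.83 and 0.73.

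The endothelial cells were divided into 6 sub-clusters by their own variable genes, after each library had been centred on its own mean. The leading genes defined the sub-clusters and are no result. Sub-cluster 2 (41 untreated and 51 calcitriol cells) was venous-like by 6 of 10 markers, with *Ackr1*, *Selp*, *Sele*, *Vwf* and *Lrg1* among its 10 leading genes. The venous markers *Nr2f2*, *Ephb4*, *Aplnr* and *Nrp2* were not among the 6. It also had 3 of 12 sinusoidal markers, *Il6st*, *Vcam1* and *Plvap*, and *Tagln* and *Lepr* were among its leading genes. Sub-cluster 5 (22 and 25 cells) was lymphatic-like, with all 6 lymphatic markers, *Lyve1* in 93.6% of its cells and *Fabp4* in 6.38%, and none of its cells had all 6 rule genes. Sub-cluster 1 (33 and 64 cells) was capillary-like by 8 of 11 markers, though led by the activity gene *Arc* and the interferon-response genes *Ifit1* and *Cxcl9*.

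The other 3 are called by number. Sub-cluster 3 (52 and 40 cells) had 10 of 11 capillary markers but was led by the muscle genes *Acta1* and *Ckm* and by *Hbb-bt*. Sub-cluster 4 (36 and 38 cells) held 7 tip cell markers and 7 fibroblast markers and was led by *Prg4* and *Col1a1*, and sub-cluster 6 (16 and 18 cells) was led by the pericyte genes *Rgs5* and *Notch3*. Sizes were not compared between libraries, since genes that define capillary cells, such as *Car4* and *Timp4*, differed between them.

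Ratios within the 4 sub-clusters that had at least 30 cells of each library had the same direction for the main genes. *Tmem252* was at 3.84 [3.14, 4.63] in sub-cluster 1, 1.07 [0.67, 1.48] in the venous-like sub-cluster 2, 4.94 [4.11, 5.91] in sub-cluster 3 and 1.98 [1.22, 2.83] in sub-cluster 4, so that its interval in the venous-like cells lay below those of sub-clusters 1 and 3. *Ccnd1* was lower in all 4, from -5.10 [-6.99, -3.72] in sub-cluster 3 to -1.63 [-2.40, -0.92] in sub-cluster 4. *Lpl* lay between 1.67 and 2.88 and *Ace* between 1.08 and 2.80.

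*Cav1* was at -0.85 [-0.99, -0.71], -1.03 [-1.33, -0.73], -0.68 [-0.82, -0.55] and -0.39 [-0.60, -0.18] in sub-clusters 1 to 4. For the caveola genes that passed the limits within each of these sub-clusters, the medians were -0.78, -0.77, -0.68 and -0.39. Those of the glucocorticoid-response genes were 0.76, 0.49, 1.57 and 0.80. Over all genes that passed the limits in the same sub-cluster, the medians lay between -0.15 and 0.02.

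**Figure D5:**
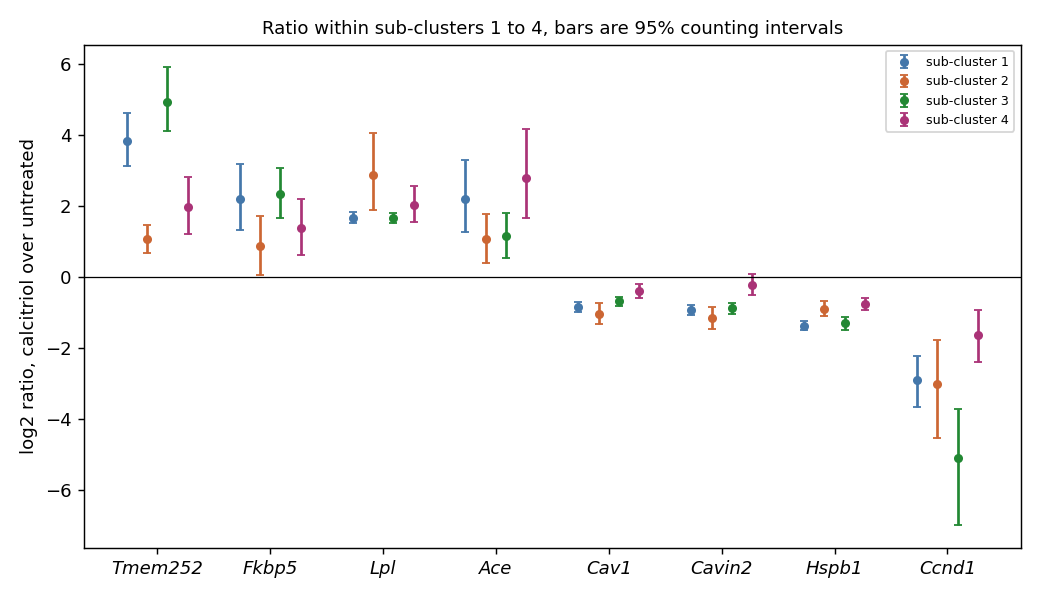
Log2 ratio of calcitriol over untreated for 8 genes within sub-clusters 1 to 4 of the endothelial cells, with 95% intervals of counting error. *Tmem252*, *Fkbp5*, *Lpl* and *Ace* lie above 0 in all 4 and *Cav1*, *Cavin2*, *Hspb1* and *Ccnd1* below it, the interval of *Cavin2* in sub-cluster 4 reaching past 0.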

How the data were processed

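Per the labels, single-cell libraries were made with 10x Chromium 3′ v3.1 chemistry from collagenase-digested, CD45-depleted femurs, 1 library of 6 pooled mice per group. The authors counted UMIs per gene and barcode with Cell Ranger 4.0.0 on mm10 and deposited these counts as matrices that were not normalized, and the submitters' processing notes also name Seurat 3.2.2. The deposited matrices were used here with Python 3.11.15, scipy 1.17.1 and scanpy 1.11.5. UMIs of the endothelial cells were summed per library, scaled to CPM and compared as log2 ratios with exact conditional binomial intervals at 95%, which cover counting error only. No test between groups was made. Sub-clusters came from Leiden clustering (2000 variable genes, 20 components, 15 neighbours, resolution 0.5), and they were named by a threshold set after the clusters were seen. The automatic threshold of Scrublet marked 1 of 4633 and 12 of 3920 barcodes and so did not work, and doublets were kept except in alternatives.

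Genes were named by a rule: the markers, the 10 highest and 10 lowest ratios, the 15 most abundant of the genes over 8-fold above all other barcodes, and from each list the 3 genes with most UMIs and every gene past 2-fold. Other genes, among them *Sox18*, *Icam2*, *Kdr*, *Fabp5*, *Podxl*, *Tsc22d3*, *Cav2*, *Cavin3*, *Pacsin2*, *Tek*, *Mertk*, *Nos3*, *Hspa1a*, *Erg*, *Fli1*, *Vdr* and *Cyp24a1*, were named after their values were seen. The members and lists were chosen with earlier results of these data known, so the list of glucocorticoid-response genes is no independent support. Promoter sequences are from RefSeq on GRCm38.p6, which shares its coordinates with mm10, and those on chromosome 18 were not used here.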

Additional observations from a re-analysis of the deposited data

How the results depend on the processing

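Without replicate libraries no paired analysis was possible because each group is 1 pool, and the counts of cells and UMIs limit the precision within it. The share of endothelial cells was 5.03% (untreated) and 7.09% (calcitriol) with 2 or more rule genes, 3.67% untreated with 4 or more, 3.45% and 5.0% with at least 1000 genes and at most 10% mitochondrial UMIs, and 3.06% and 3.90% without cells holding 3 or more markers of other cell types. The counts past 2-fold (131 higher, 154 lower) were 65 and 71 after thinning, 232 and 360 for the mean of the cells' CPM, 361 and 414 with 20 or more UMIs, and 71 and 51 with 200 or more, while 480 and 790 genes were past 1.5-fold. Centred on the median of all genes the split was 161 higher and 126 lower. Of the calls, 51 higher (38.9%) and 51 lower (33.1%) were shared with the set without other markers of 142 and 153 cells, and 39 (29.8%) and 26 (16.9%) with the thinned cells. Over 14 alternatives computed per gene, 49 higher and 55 lower genes had ratios past 2-fold in each, but many fell under the limits for a measured gene after thinning. Measured in all 14 were 27 higher genes, with *Tmem252*, *Lpl*, *Fkbp5* and *Ace*, and 15 lower genes, with *Ccnd1*, *Pltp* and *Timp4*. The caveola median was -0.84 without other markers and -0.85 after thinning, and the VEGF median -0.39 after thinning. Directions turned for the medians of tip cell genes (0.22 without sub-clusters 4 and 6, an alternative chosen after seeing the data), lymphatic genes (-0.45 without other markers, against 0.23) and 9 vitamin D genes that the study names for osteocytes (0.49, but -0.0040 without Scrublet doublets and for the mean CPM, -0.38 without other markers, -0.30 without sub-clusters 4 and 6, -0.48 thinned, and -0.023 with either UMI limit). Among genes past 2-fold they turned for *Fn1* (-0.30 without sub-clusters 4 and 6), *Msmp* (-0.12 without other markers) and *Sulf2* (1.00, but -0.0040 for the mean CPM). Of genes under 2-fold, *Lyve1* (-0.75), *Mmrn1* (-0.16), *Selp* (0.04) and *Icam1* (0.07) were among those that changed sign without other markers. The cause of these turns was not tested.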

Other observations

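Further gene groups of the endothelial cells had few genes past 2-fold. Arterial genes had a median of 0.13 with none of 13 past 2-fold, and sinusoidal genes 0.01 with 1 of 9 higher (1.64% of all genes). Venous genes had a median of -0.16, with 1 of 13 higher (*Lrg1*, 180 and 362 CPM, lowest ratio 0.91) and 1 lower (*Aplnr*), beside 1.64% and 1.93% of all genes. The sinusoidal gene was *Adamts5*, a matrix protease, at 1.49, but at 0.12 without cells with 3 or more markers of other cell types, 0.23 after thinning and 0.69 without sub-clusters 4 and 6. Lymphatic genes had a median of 0.23, above the third quartile of all genes (0.19), with none of 6 past 2-fold. Its direction turned without cells with 3 or more markers of other cell types, as given above. Type H vessel genes, which mark capillaries near growing bone, had a median of -0.04 with 1 of 7 higher (1.64% of all genes), which was *Bmp4*.

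Transporter genes had a median of 0.18 with none of 14 past 2-fold, MHC class I and antigen presentation genes -0.10 with none of 11, and shear-responsive genes 0.05 with none of 10. Junction genes, which include the rule gene *Cdh5*, had a median of -0.02 with none of 13 past 2-fold. TGF-beta and BMP signalling genes had a median of -0.10 with 2 of 16 past 2-fold higher (1.64% of all genes), *Bmp4* and the co-receptor gene *Tgfbr3* (57.5 and 124 CPM, 1.11 [0.82, 1.40], and 0.86 for the mean of the cells' CPM). Of 27 endothelial transcription factor genes 1 was past 2-fold lower (1.93% of all genes), *Meox1*, at 107 and 49.2 CPM (-1.12 [-1.42, -0.82]), which was -0.69 without sub-clusters 4 and 6 and -0.82 after thinning.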
